A study of Homo sapiens with 9 samples.

Results

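The mitotic genes described here are 42 genes that carry cells into, through and out of mitosis: the mitotic kinases and their regulators, the A, B and F cyclins with their CKS partners, the activators and ubiquitin-conjugating enzymes of the anaphase-promoting complex (APC/C), and proteins of the chromosomal passenger complex, the spindle, cytokinesis, chromosome structure and mitotic transcription. A member was every probe set whose single gene symbol was one of the listed names, current or older. This found 125 of the 49395 probe sets on the array, for 41 of the 42 genes. Of these, 115 probe sets passed the filter on low intensity, as did all 41 genes, and they were tested among 27195 probe sets and 12434 genes. PTTG1, which encodes securin, was not read, because its probe set is shared with PTTG3P. An AURKA probe set shared with AURKAP1 and RAB3GAP2 was left out.

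RNA was measured on Affymetrix arrays in HCCC-9810, a human cholangiocarcinoma (bile duct cancer) cell line. The 9 arrays form 3 groups of 3: cells given siRNAs against BAP1 (si-BAP1), a nuclear deubiquitinase, cells given siRNAs against MBD5 (si-MBD5), which encodes a protein with a methyl-CpG-binding domain, and a transfected control (si-Control). The control is named si-Control in the titles and descriptions but control shRNA elsewhere in the labels, and which was used is not settled. Each group holds 3 biological replicates of this 1 line, and the time after transfection and the siRNA sequences are not given in the sources used here. All 9 samples were transfected, and the labels name no other agent. Both knockdowns are compared with the same 3 control arrays, so values of the 2 comparisons are given side by side and are not independent.

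Mitosis starts when CDK1, bound to cyclin B, escapes inhibitory phosphorylation: the kinases WEE1 and PKMYT1 place the phosphates and the CDC25 phosphatases remove them. PLK1, the Aurora kinases and NEK2 then act on centrosomes, spindle and kinetochores. The APC/C, a large ubiquitin ligase that is switched on by CDC20 and later by FZR1 (CDH1), marks securin and cyclin B for destruction, which frees the protease separase (ESPL1) and ends mitosis. Many of these genes are transcribed together late in the cell cycle by the MuvB complex with MYBL2 (B-MYB) and FOXM1, and are silenced in resting cells by the DREAM complex, which contacts a promoter element called the CHR. Their summed level is therefore widely read as a measure of how many cells are dividing, and in RNA from whole cultures a change in the share of mitotic cells cannot be told apart from a change in RNA per cell.

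The targeted genes could be checked only in part. MBD5 lay near the bottom of the array, at the 11.9th percentile of probe sets for its brighter one, which read 7.16, 7.06 and 6.90 in the si-Control arrays and 6.20, 6.20 and 6.11 in the si-MBD5 arrays. Its log2 fold change was -0.055 (SE 0.027, limma adjusted p = 0.302 over 44988 probe sets), so the knockdown is not settled by these data. BAP1 was not analysed here. Array medians ran from 36.9 to 38.2, and arrays of 1 group correlated at 0.997 to 0.999, against 0.993 to 0.997 between groups. As a check on RNA quality, the 3′ probe set of ACTB over its 5′ probe set gave 11.1 ± 0.31 in si-BAP1 and 12.2 ± 0.52 in si-Control (SD, n = 3; exact permutation p = 0.1, two-sided, the smallest that 3 against 3 arrays can give), and 12.3 ± 0.72 in si-MBD5 (exact permutation p = 0.8). Its part in the differences of si-BAP1 was not tested. The bile duct markers KRT7, KRT8, KRT18 and SOX9 were above the filter, while KRT19 and EPCAM were below it. KRT7 was lower in si-BAP1 (-0.153 log2, limma adjusted p = 0.0236) and in si-MBD5 (-0.188, limma adjusted p = 0.0113). KRT8 was higher in si-BAP1 (0.31, limma adjusted p = 0.000228) and not called in si-MBD5 (0.057, limma adjusted p = 0.464). KRT18 and SOX9 were not called in either. The summed level of all 6 bile duct markers ran from 3460 to 3740 in si-Control, 3590 to 3700 in si-BAP1 and 3260 to 3520 in si-MBD5. The summed fibroblast markers ran from 126 to 134, 141 to 151 and 137 to 152 in the same order, with COL1A2, COL3A1, DCN and LUM below the filter and PDGFRB called higher in both (0.161 and 0.244 log2), and their part in the results was not tested.

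In both knockdowns more of the mitotic genes were called higher than lower, and the changes were small. The members were chosen with earlier results of these data known, so the shares of all genes stand beside theirs as description only. In si-BAP1 cells 14 of the 41 genes were higher than in si-Control and 1, CDK1, was lower, at a limma adjusted p below 0.05. Across all genes 12.4% were called higher and 11.1% lower, 23.5% in all. In si-MBD5 cells 16 of the 41 were higher and 1, WEE1, was lower, against 7.29% of all genes called higher and 8.99% lower, 16.3% in all. The share of members called higher was thus 34.1% in si-BAP1 and 39% in si-MBD5, and in either direction 36.6% and 41.5%. Most members are bright: 40 of the 41 passed a filter at the 60th percentile of intensity. Over the 9161 genes that passed it, 31% were called in si-BAP1, 1519 of them higher. In si-MBD5 21.9% of them were called, 878 higher. Intensities are the deposited values on a linear scale, log2 fold changes are differences of mean log2(intensity + 16) with n = 3 arrays a group, and each gene is read from its brightest probe set; adding 16 makes these changes smaller than the plain ratio of intensities.

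The median log2 fold change of the members was 0.089 in si-BAP1 and 0.117 in si-MBD5, where the median of all genes was 0 in both. Of the 41 genes, 31 lay above 0 in si-BAP1 and 35 in si-MBD5. In 21 genes all 3 si-BAP1 arrays read above all 3 controls and in 3 (BIRC5, CDK1 and CKS2) below them, against 20% and 17.4% of all genes. The same held for 20 genes above and 1 (WEE1) below in si-MBD5, against 14% and 16.4% of all genes. Under 20 other settings per comparison the median of the members stayed between 0.075 and 0.106 in si-BAP1 and between 0.101 and 0.134 in si-MBD5. The number of genes called higher in si-MBD5 rested in part on the control arrays: it fell to 8 without si-Control replicate 2 and to 10 without si-Control replicate 3. Calls over all genes fell there too, from 16.3% to 10.2% and 12.9%, with 907 genes higher becoming 591 and 748. It rested in part on the scaling as well: median centring ended the si-MBD5 calls of AURKA, ASPM, CDC20, DLGAP5 and ESPL1. Calls over all genes fell to 14.3% under median centring, with 698 higher. Over the alternatives that kept every array, the number of members called higher in si-MBD5 ran from 11 to 21. In si-BAP1 the number of members called higher stayed between 13 and 14 without any 1 array. It rose to 23 when arrays were weighted by their quality, where calls over all genes rose from 23.5% to 36.1%, with 2355 higher.

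**Figure D1:**
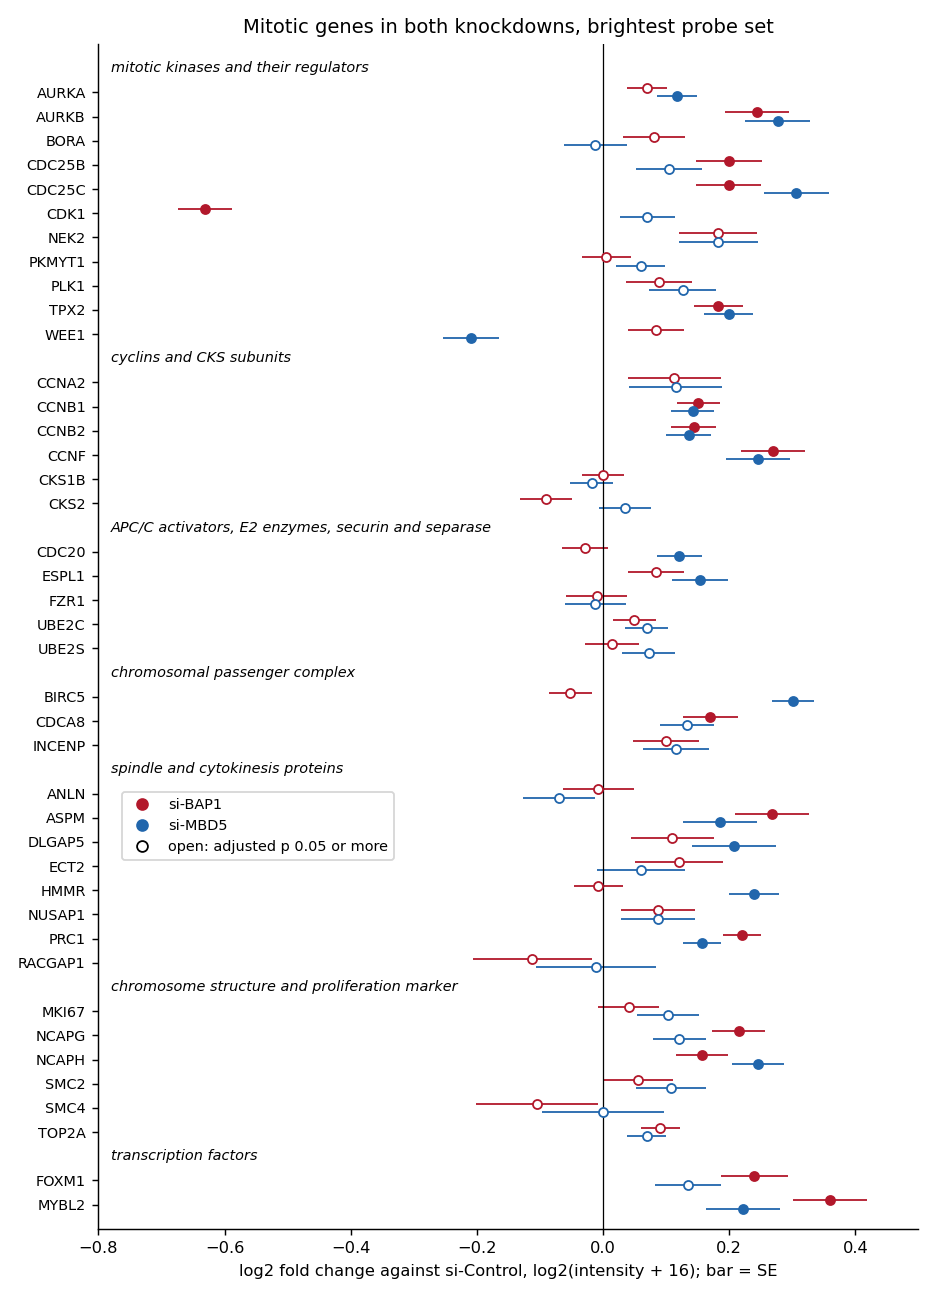
Log2 fold change of each of the 41 mitotic genes against si-Control (x axis, log2(intensity + 16); bars are standard errors, n = 3 arrays a group), in si-BAP1 (red) and si-MBD5 (blue), ordered by role. Filled points passed the threshold of adjusted p 0.05; most lie between 0.1 and 0.4 above 0, with CDK1 in si-BAP1 at -0.63 and WEE1 in si-MBD5 at -0.21 as the exceptions.

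Each array of the knockdowns showed the shift. The median of the members, taken as the difference of each array from the mean of the control arrays, was 0.064, 0.107 and 0.107 log2 in the si-BAP1 arrays and 0.103, 0.174 and 0.102 in the si-MBD5 arrays. In the control arrays it was 0.007, -0.003 and -0.003. The median of all tested genes stayed between -0.006 and 0.005 in every array. Between 29 and 34 of the 41 genes lay above the control mean in the si-BAP1 arrays, and between 32 and 37 in the si-MBD5 arrays.

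**Figure D2:**
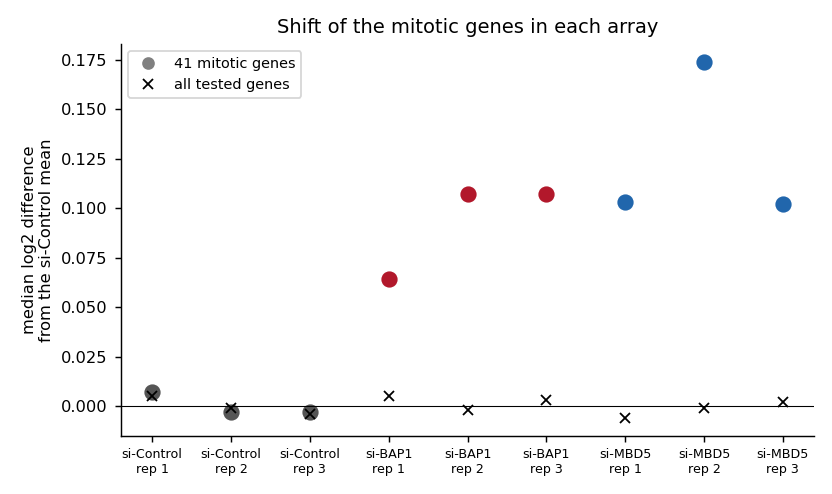
Median log2 difference from the si-Control mean (y axis) over the 41 mitotic genes (circles) and over all tested genes (crosses) in each of the 9 arrays. The 6 knockdown arrays sit between 0.064 and 0.174 for the mitotic genes, and all 9 crosses lie within 0.006 of 0.

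Promoter sequences were read as a description of the members. Many of them are known late cell-cycle genes of the kind that DREAM contacts at the CHR. A high share of CHR letters among them therefore goes with the choice of members and is no result of these arrays. RefSeq (GRCh38.p14) entries matched 33 of the 41 genes, and the 250 bases before each start site were searched on both strands for the CHR letters TTTGAA and TTCGAA and for the CCAAT box, the site of the factor NF-Y. A CHR form was present in 24 of the 33 genes (72.7%), against 17.2% of 27305 genes in the table. CCAAT was present in 27 of the 33 (81.8%), against 37.0% of all genes, and both together in 20 (60.6%), against 6.24%. CHR letters shared bases with a CCAAT in 2 cases. The promoters below are those of 3 genes higher in both knockdowns (CCNB1, CCNB2 and PRC1), of 2 that were called higher in si-MBD5 (CDC20 and HMMR), and of CDK1 at the second of its start sites, the gene that read lower in si-BAP1. Capitals mark the CHR letters and CCAAT boxes, written as TTCAAA and ATTGG where they lie on the other strand.
CCNB1: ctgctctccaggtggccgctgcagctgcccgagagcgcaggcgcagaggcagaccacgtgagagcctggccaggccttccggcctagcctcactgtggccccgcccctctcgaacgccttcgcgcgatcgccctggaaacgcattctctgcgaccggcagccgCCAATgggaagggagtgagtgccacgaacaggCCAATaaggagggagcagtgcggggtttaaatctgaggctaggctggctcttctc
CCNB2: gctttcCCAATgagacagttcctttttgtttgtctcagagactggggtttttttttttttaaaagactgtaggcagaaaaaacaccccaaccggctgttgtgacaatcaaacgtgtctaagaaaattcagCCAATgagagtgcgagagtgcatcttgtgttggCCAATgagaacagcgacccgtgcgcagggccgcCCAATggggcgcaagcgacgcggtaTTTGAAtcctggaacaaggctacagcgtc
PRC1: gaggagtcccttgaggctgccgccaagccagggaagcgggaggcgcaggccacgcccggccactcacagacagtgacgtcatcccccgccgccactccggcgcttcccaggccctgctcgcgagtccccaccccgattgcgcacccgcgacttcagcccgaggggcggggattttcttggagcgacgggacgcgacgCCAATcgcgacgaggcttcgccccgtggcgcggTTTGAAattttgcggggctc
CDC20: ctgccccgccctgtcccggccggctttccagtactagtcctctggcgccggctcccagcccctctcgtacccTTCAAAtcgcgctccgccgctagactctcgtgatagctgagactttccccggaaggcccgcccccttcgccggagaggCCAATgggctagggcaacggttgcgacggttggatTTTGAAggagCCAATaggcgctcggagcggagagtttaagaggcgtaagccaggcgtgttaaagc
HMMR: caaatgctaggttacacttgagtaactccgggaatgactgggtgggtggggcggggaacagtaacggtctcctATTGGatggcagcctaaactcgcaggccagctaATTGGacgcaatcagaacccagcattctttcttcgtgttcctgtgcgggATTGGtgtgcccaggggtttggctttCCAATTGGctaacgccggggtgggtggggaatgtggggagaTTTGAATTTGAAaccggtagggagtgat
CDK1: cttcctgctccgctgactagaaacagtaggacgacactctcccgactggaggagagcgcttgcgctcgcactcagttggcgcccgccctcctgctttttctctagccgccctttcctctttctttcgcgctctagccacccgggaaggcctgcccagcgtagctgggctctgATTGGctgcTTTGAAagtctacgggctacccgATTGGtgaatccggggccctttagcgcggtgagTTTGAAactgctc

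These are the stretches chr5:69166900-69167149, plus strand (CCNB1), chr15:59104896-59105145, plus strand (CCNB2), chr15:90994536-90994785, minus strand (PRC1), chr1:43358731-43358980, plus strand (CDC20), chr5:163460382-163460631, plus strand (HMMR) and chr10:60778228-60778477, plus strand (CDK1), each printed 5′ to 3′ along its gene. CCNB2 and PRC1 hold their CHR letters 29 and 20 bases before the start, CCNB2 downstream of 4 CCAAT boxes and PRC1 of 1. HMMR holds 2 copies back to back, 28 and 22 bases before the start. CCNB1 holds 2 CCAAT boxes, 87 and 55 bases before the start, and none of the CHR letters in this window. CDK1 carries the letters 69 and 13 bases before its second start, so this gene shares them with genes that were higher. Among the 24 genes with CHR letters 8 were called higher and 1 lower in si-BAP1, and 9 higher in si-MBD5. Among the 9 without them 4 were called higher in each. The shares over all genes were 12.4% higher and 11.1% lower in si-BAP1, and 7.29% higher and 8.99% lower in si-MBD5. A link between the letters and the calls was not tested.

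Among the 11 mitotic kinases and their regulators, 4 were higher and 1 lower in each knockdown, where 12.4% of all genes were higher and 11.1% lower in si-BAP1 and 7.29% higher and 8.99% lower in si-MBD5. The median log2 fold change was 0.089 in si-BAP1 and 0.12 in si-MBD5. CDK1, the kinase that drives entry into mitosis, had the change of greatest size. Its brightest probe set read 1976, 1976 and 2070.4 in the si-Control arrays, 1216, 1385 and 1276 in the si-BAP1 arrays and 2111, 2171 and 2043 in the si-MBD5 arrays. All 3 si-BAP1 arrays lay far below the other 6, which overlapped. The mean fell from 2007 ± 54.5 to 1292 ± 85.9 (SD, n = 3), a log2 fold change of -0.63 (SE 0.043, limma adjusted p = 4.86e-07). A second, dimmer probe set of CDK1 did not show this: it read 406, 421 and 494 in the si-Control arrays, 419, 469.6 and 420.3 in the si-BAP1 arrays and 451, 503 and 442 in the si-MBD5 arrays. The groups overlapped there, with a log2 fold change of -0.01 (SE 0.072, limma adjusted p = 0.944). The brighter probe set has a name ending in _s_at, a class whose probes may match several transcripts, and without that class and _x_at sets CDK1 was not called in si-BAP1 (adjusted p = 0.945). Whether CDK1 RNA fell is therefore not settled by these arrays.

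AURKB, the kinase of the chromosomal passenger complex, was higher in both knockdowns. It read 539, 525 and 483 in the si-Control arrays, 611, 603 and 626 in the si-BAP1 arrays and 589, 624 and 673 in the si-MBD5 arrays. All knockdown arrays lay above all controls and the knockdowns overlapped each other. Log2 fold changes were 0.24 (SE 0.051, limma adjusted p = 0.00329) in si-BAP1 and 0.28 (SE 0.051, limma adjusted p = 0.00236) in si-MBD5. AURKA, which builds spindle poles, was called in si-MBD5 (0.12, adjusted p = 0.0232), while its value in si-BAP1 was 0.07 (adjusted p = 0.143). Its call in si-MBD5 ended without si-Control replicate 2 or 3 or without si-MBD5 replicate 3 (adjusted p = 0.103, 0.0761 and 0.0707), and under median centring (adjusted p = 0.0516). TPX2, the spindle protein that activates AURKA, was higher in both, by 0.18 (adjusted p = 0.00377) and 0.20 (adjusted p = 0.00365) log2.

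CDC25C, a phosphatase that switches CDK1 on, read 129.7, 135 and 116 in the si-Control arrays, 146, 151 and 146 in the si-BAP1 arrays and 163, 163 and 155 in the si-MBD5 arrays. Its 3 groups did not overlap, with si-MBD5 highest and si-Control lowest. The log2 fold change was 0.20 (SE 0.052, limma adjusted p = 0.0122) in si-BAP1, where the call ended without si-Control replicate 3 (adjusted p = 0.0517), and 0.31 (SE 0.052, limma adjusted p = 0.00131) in si-MBD5. The knockdowns themselves were not told apart by the fit (adjusted p = 0.239).

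CDC25B read 429, 426 and 419 in the si-Control arrays, 507, 457 and 507 in the si-BAP1 arrays and 427, 489.8 and 457 in the si-MBD5 arrays. The si-BAP1 arrays lay above the controls, and the si-MBD5 arrays overlapped both. In si-BAP1 the log2 fold change was 0.20 (SE 0.052, limma adjusted p = 0.0127), and the call ended without si-BAP1 replicate 1 or 3 (adjusted p = 0.0564 and 0.0641). The 4 dimmer probe sets of CDC25B ran from -0.029 to 0.033 and none was called; the mean over its probe sets was not called either (adjusted p = 0.549).

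WEE1, the kinase that holds CDK1 inactive, read 939, 946 and 956 in the si-Control arrays, 984, 1041 and 989.5 in the si-BAP1 arrays and 841, 855 and 757 in the si-MBD5 arrays. The 3 si-MBD5 arrays lay below every other array and the si-BAP1 arrays above every other array. The fall in si-MBD5 passed the test (-0.21, SE 0.044, limma adjusted p = 0.00539). WEE1 has a single probe set, of the _s_at class, so no other set bears on it. The value in si-BAP1 did not pass (0.084, SE 0.044, limma adjusted p = 0.206). PKMYT1, the related membrane-bound kinase, read 548, 548 and 539.7 in the si-Control arrays, 548, 545 and 547 in the si-BAP1 arrays and 560.0, 548 and 600.1 in the si-MBD5 arrays. Its groups overlapped and its brightest probe set was not called (0.005, adjusted p = 0.948 and 0.06, adjusted p = 0.346). Another of its 6 probe sets was called higher in si-MBD5 (0.11, adjusted p = 0.0498), while -0.078 was the value of the one set below 0.

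PLK1, the central kinase of mitotic progression, had log2 fold changes of 0.089 (adjusted p = 0.271) and 0.13 (adjusted p = 0.132) from its brightest probe set. Its dimmer sets were higher in 2 of 2 cases in si-BAP1 and 1 of 2 in si-MBD5. NEK2, the centrosome kinase, lay just outside the threshold in si-BAP1 (0.18, adjusted p = 0.0502) and had 0.18 (adjusted p = 0.0645) in si-MBD5. BORA, the cofactor through which AURKA activates PLK1, was not called in either (0.081, adjusted p = 0.293 and -0.012, adjusted p = 0.909).

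Of the 6 cyclins and CKS subunits, 3 were higher in both knockdowns, CCNB1, CCNB2 and CCNF, against 12.4% of all genes in si-BAP1 and 7.29% in si-MBD5. CCNF encodes cyclin F, the substrate receptor of an SCF ubiquitin ligase, and read 182, 175 and 167 in the si-Control arrays, 204, 222 and 216 in the si-BAP1 arrays and 197, 219 and 215 in the si-MBD5 arrays. All knockdown arrays lay above the controls. Against si-Control, 0.27 (SE 0.051, limma adjusted p = 0.0016) was the log2 fold change in si-BAP1 and 0.25 (SE 0.051, limma adjusted p = 0.00501) that in si-MBD5. CCNB1, the main partner of CDK1, was 1.11-fold of control in si-BAP1 (0.15, SE 0.034, limma adjusted p = 0.00502) and 1.1-fold in si-MBD5 (0.14, SE 0.034, limma adjusted p = 0.0114).

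CCNB2, the second B-type cyclin, changed by 0.14 (adjusted p = 0.00938) and 0.14 (adjusted p = 0.0193) log2. In si-MBD5 the call of CCNB1 ended without si-Control replicate 2 (adjusted p = 0.0627). The call of CCNB2 there ended without si-Control replicate 2 or 3 or si-MBD5 replicate 3 (adjusted p = 0.0828, 0.0501 and 0.0643). CCNA2, the A-type cyclin of S phase and early mitosis, was not called from its brightest probe set (0.11, adjusted p = 0.325 and 0.12, adjusted p = 0.348), but its dimmer one was higher in both (0.30, adjusted p = 0.000329 and 0.23, adjusted p = 0.00477). The CKS subunits, which help CDK complexes find multiply phosphorylated substrates, were not called: CKS2 had -0.09 (adjusted p = 0.143) in si-BAP1 and 0.035 (adjusted p = 0.639) in si-MBD5, and CKS1B lay within 0.02 of 0 in both.

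No APC/C member was called in si-BAP1. With 23.5% of all genes called, 0 of 5 is no result about these genes. None of them passed the limma test there, at an adjusted p below 0.05 or at an unadjusted p below 0.05, and their log2 fold changes ran from -0.028 to 0.084, with a median of 0.014. In si-MBD5, where the median was 0.072, CDC20 and ESPL1 were higher, against 7.29% of all genes. CDC20, the activator of the APC/C in metaphase and target of the spindle checkpoint, read 485, 477 and 461 in the si-Control arrays, 463, 465 and 467 in the si-BAP1 arrays and 503, 523 and 526 in the si-MBD5 arrays. The si-MBD5 arrays lay above all others and the remaining 6 overlapped. For CDC20 the fit gave a log2 fold change of 0.12 (SE 0.036, limma adjusted p = 0.0362) in si-MBD5 and -0.028 (SE 0.036, limma adjusted p = 0.654) in si-BAP1.

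That call of CDC20 depended on single arrays. It ended without si-Control replicate 2 or 3 or si-MBD5 replicate 2 or 3 (adjusted p from 0.0825 to 0.121), without _s_at and _x_at sets (0.226) and under median centring (0.0871). ESPL1 (separase) had 0.15 (adjusted p = 0.0307) in si-MBD5, a call that ended without si-Control replicate 2 or 3 or si-MBD5 replicate 2 or 3 (adjusted p from 0.0553 to 0.123) and under median centring (0.0634), and 0.084 (adjusted p = 0.213) in si-BAP1.

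FZR1, the activator that takes over from CDC20 in late mitosis and G1, read 34.1, 36.5 and 35.1 in the si-Control arrays, 35.1, 34.4 and 35.1 in the si-BAP1 arrays and 36.2, 32.5 and 35.8 in the si-MBD5 arrays. These values are close to the filter at 25.5, the groups overlapped, and the log2 fold changes were -0.01 (adjusted p = 0.916) and -0.013 (adjusted p = 0.905). UBE2C, the enzyme that places the first ubiquitin on APC/C substrates, read 2073, 1944 and 1947 in the si-Control arrays, 2084, 2100.4 and 1987 in the si-BAP1 arrays and 2062, 2062 and 2134 in the si-MBD5 arrays. UBE2S, which lengthens the chain, read 2139, 2129.8 and 1928 in the si-Control arrays, 2086, 2037 and 2128 in the si-BAP1 arrays and 2107, 2127 and 2279.6 in the si-MBD5 arrays. Both overlapped between groups, with log2 fold changes of 0.049 (adjusted p = 0.355) and 0.069 (adjusted p = 0.204) for UBE2C and 0.014 (adjusted p = 0.867) and 0.072 (adjusted p = 0.297) for UBE2S.

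The subunits of the complex itself, with the inhibitor FBXO5 (EMI1), were read as context. Of these 15 genes 6 were higher and 3 lower in si-BAP1, and 2 higher and 3 lower in si-MBD5. Over all genes 12.4% were higher and 11.1% lower in si-BAP1, and 7.29% higher and 8.99% lower in si-MBD5. The list medians were 0.046 and -0.026 log2. CDC23, a TPR-repeat subunit, was higher in si-BAP1 (0.37, adjusted p = 4.28e-05) and had 0.077 (adjusted p = 0.29) in si-MBD5. ANAPC7 and ANAPC15 were higher in both, by 0.24 and 0.25 log2 in si-BAP1 and 0.18 and 0.24 in si-MBD5, with ANAPC7 not called from the mean of its probe sets in either. ANAPC10, a substrate-binding subunit, was lower in both (-0.18, adjusted p = 0.0303 and -0.27, adjusted p = 0.00396); in si-BAP1 this call ended without si-BAP1 replicate 1 or 3 or si-Control replicate 1 or 3 (adjusted p from 0.0714 to 0.134). FBXO5 was not called in either (0.12, adjusted p = 0.118 and 0.006, adjusted p = 0.96).

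**Figure D3:**
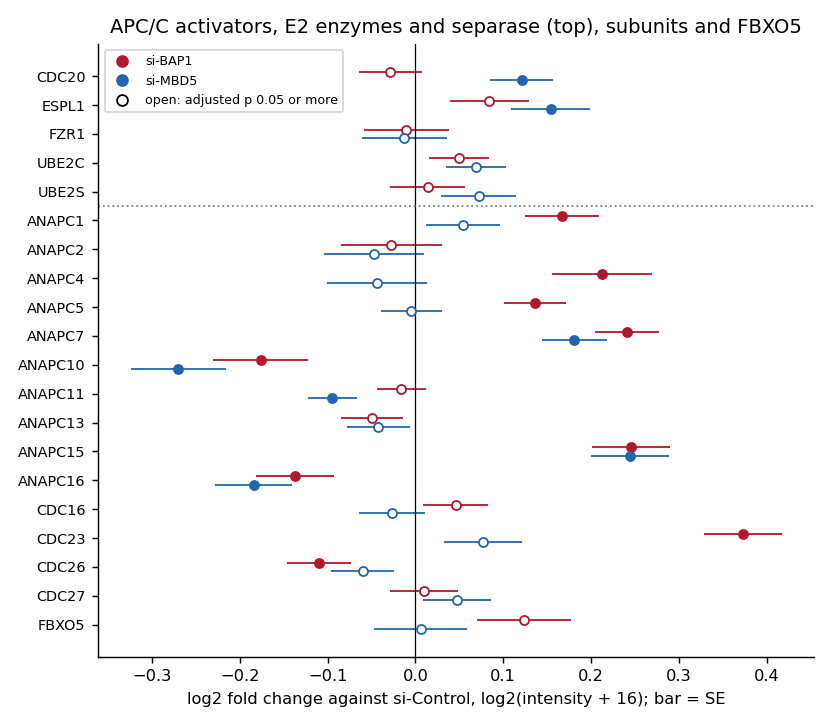
Log2 fold change against si-Control (x axis, log2(intensity + 16); bars are standard errors, n = 3) of the 5 APC/C members (above the dotted line) and of the 15 genes of the subunit list, FBXO5 included (below it). Filled points passed the threshold; in si-BAP1 none of the 5 members did, while CDC23 reached 0.37.

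The chromosomal passenger complex corrects faulty attachments of chromosomes to the spindle. BIRC5 (survivin), the subunit that docks it on chromatin, differed between the knockdowns. It read 803, 793 and 788 in the si-Control arrays, 755, 771 and 772 in the si-BAP1 arrays and 947, 1001 and 1002 in the si-MBD5 arrays. The si-MBD5 arrays lay above all others and the si-BAP1 arrays just below the controls. Its brightest probe set had a log2 fold change of 0.30 (SE 0.034, limma adjusted p = 6.45e-05) in si-MBD5 and -0.052 (SE 0.034, limma adjusted p = 0.325) in si-BAP1. Over its 11 tested probe sets 8 were called higher in si-MBD5 and none in si-BAP1, where values ran from -0.052 to 0.12. CDCA8 (borealin), its partner in the complex, was higher in si-BAP1 (0.17, adjusted p = 0.0109) and lay just outside the threshold in si-MBD5 (0.13, adjusted p = 0.0532). INCENP, the scaffold, was not called (0.10, adjusted p = 0.206 and 0.12, adjusted p = 0.164).

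Of the 8 spindle and cytokinesis genes, ASPM and PRC1 were higher in si-BAP1, and these with DLGAP5 and HMMR in si-MBD5. Across all genes 12.4% were higher in si-BAP1 and 7.29% in si-MBD5. PRC1, which bundles the microtubules of the central spindle, read 1686, 1656 and 1698 in the si-Control arrays, 1912, 1975 and 1993 in the si-BAP1 arrays and 1835, 1918 and 1874 in the si-MBD5 arrays. All knockdown arrays lay above the controls. The log2 fold change was 0.22 (SE 0.03, limma adjusted p = 0.000111) in si-BAP1 and 0.16 (SE 0.03, limma adjusted p = 0.00269) in si-MBD5. ASPM, a spindle-pole protein, read 516, 547 and 544 in the si-Control arrays, 625, 657 and 662 in the si-BAP1 arrays and 613, 674 and 551 in the si-MBD5 arrays. The knockdown arrays lay above the controls and si-MBD5 was the more scattered, with an SD of 61.4 against 17.1 in si-Control. Log2 fold changes were 0.27 (SE 0.059, limma adjusted p = 0.00431) in si-BAP1 and 0.19 (SE 0.059, limma adjusted p = 0.0466) in si-MBD5, where the call ended without any of the 3 control arrays or si-MBD5 replicate 1 or 2 (adjusted p from 0.0782 to 0.155).

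HMMR, a hyaluronan receptor that also binds the spindle, read 708, 724 and 701 in the si-Control arrays, 673, 733 and 716 in the si-BAP1 arrays and 850.4, 861 and 815 in the si-MBD5 arrays. The si-MBD5 arrays lay above all others, and si-BAP1 overlapped the controls. For HMMR the fit gave a log2 fold change of 0.24 (SE 0.039, limma adjusted p = 0.00108) in si-MBD5 and -0.0075 (SE 0.039, limma adjusted p = 0.925) in si-BAP1. DLGAP5, a spindle assembly factor, was called in si-MBD5 (0.21, adjusted p = 0.0491), a call that ended without si-Control replicate 1 or 2 or si-MBD5 replicate 1 or 2 (adjusted p from 0.129 to 0.185) and with no filter, median centring or the mean of probe sets (0.0656 to 0.0921). ANLN (anillin), ECT2 (the activator of RhoA) and RACGAP1, which act in cytokinesis, were not called in either: they had -0.0073, 0.12 and -0.11 in si-BAP1 and -0.07, 0.06 and -0.011 in si-MBD5. NUSAP1, which binds microtubules near chromosomes, had 0.086 and 0.087.

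The chromosome structure genes include condensin, the complex that compacts mitotic chromosomes. NCAPG read 613, 562 and 568 in the si-Control arrays, 656, 677 and 698 in the si-BAP1 arrays and 629, 651 and 619 in the si-MBD5 arrays. All knockdown arrays lay above the controls. From its brightest probe set it was called in si-BAP1 (0.22, SE 0.042, limma adjusted p = 0.00192) and not in si-MBD5 (0.12, SE 0.042, limma adjusted p = 0.0684). The dimmer probe set of NCAPG was called higher in both, with 0.274 in si-MBD5. The mean of its probe sets was also called in si-MBD5 (0.197, limma adjusted p = 0.0228). NCAPH, the kleisin that closes the ring, read 291, 289.6 and 299 in the si-Control arrays, 327, 331 and 329 in the si-BAP1 arrays and 333, 356 and 364 in the si-MBD5 arrays. Its 3 groups did not overlap, and si-MBD5 was highest. The log2 fold change was 0.16 (SE 0.041, limma adjusted p = 0.013) in si-BAP1, a call that ended without si-Control replicate 2 (adjusted p = 0.0568), and 0.25 (SE 0.041, limma adjusted p = 0.00123) in si-MBD5.

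SMC4, a core condensin ATPase, read 1900.2, 2005 and 2184 in the si-Control arrays, 1667, 1991 and 2015 in the si-BAP1 arrays and 2127, 2310.2 and 1695 in the si-MBD5 arrays. The groups overlapped and the scatter was wide (-0.10, adjusted p = 0.512 and 0.00036, adjusted p = 0.999), while a dimmer probe set was called higher in si-MBD5 (0.15, adjusted p = 0.0453). SMC2, its partner, was not called (0.056 and 0.11), nor was TOP2A, the topoisomerase that untangles sister chromatids (0.091, adjusted p = 0.0521 and 0.069, adjusted p = 0.166). MKI67, which encodes the proliferation marker Ki-67, was not called from its brightest probe set (0.04, adjusted p = 0.636 and 0.10, adjusted p = 0.19). Of its 6 probe sets 4 were called higher in si-BAP1, by up to 0.41, and 3 in si-MBD5, by up to 0.35. The mean over the MKI67 probe sets was called higher in both (0.231, limma adjusted p = 0.00209 and 0.229, limma adjusted p = 0.00403). Of the other 4 condensin I and II subunits, 3 were higher in si-BAP1 and 2 in si-MBD5: NCAPD2 and NCAPG2 in both, by 0.23 and 0.23 and by 0.22 and 0.23, and NCAPD3 in si-BAP1 (0.21). Of all genes 12.4% were higher in si-BAP1 and 7.29% in si-MBD5. Both calls of NCAPG2 ended without _s_at and _x_at sets, where its log2 fold change was 0.25 in si-BAP1 (adjusted p = 0.081) and 0.24 in si-MBD5 (adjusted p = 0.11). They ended also with the mean of its probe sets, at 0.12 (adjusted p = 0.114) and 0.11 (adjusted p = 0.189).

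FOXM1 and MYBL2 are the transcription factors of the set. MYBL2 (B-MYB), the activator of the MuvB complex, read 301, 284 and 255 in the si-Control arrays, 386, 347 and 359 in the si-BAP1 arrays and 322, 320.0 and 346 in the si-MBD5 arrays. Its 3 groups did not overlap, with si-BAP1 highest. The log2 fold change was 0.36 (SE 0.059, limma adjusted p = 0.000501) in si-BAP1 and 0.22 (SE 0.059, limma adjusted p = 0.0198) in si-MBD5, where the call ended without si-Control replicate 2 or 3 or si-MBD5 replicate 3 (adjusted p = 0.054, 0.0786 and 0.0603). FOXM1, the forkhead factor of G2 and M genes, read 257, 246 and 264 in the si-Control arrays, 312, 299.9 and 302 in the si-BAP1 arrays and 258, 302 and 288 in the si-MBD5 arrays. The si-BAP1 arrays lay above the controls, and si-MBD5 replicate 1 fell among them. The log2 fold change was 0.24 (SE 0.053, limma adjusted p = 0.00441) in si-BAP1, where all 3 of its probe sets were called, and 0.14 (SE 0.053, limma adjusted p = 0.107) in si-MBD5.

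The direct comparison of si-BAP1 with si-MBD5 tests which of these differences hold between the knockdowns. Of the 41 genes, 1 was higher in si-BAP1 (WEE1) and 4 were lower (CDK1, BIRC5, HMMR and CDC20), where 5.76% of all genes were called higher and 4.21% lower, 9.97% in all. The split of all genes, 716 higher and 524 lower, became 603 higher and 711 lower under quantile normalization, 371 and 474 without si-BAP1 replicate 2, and 346 and 375 without si-MBD5 replicate 1. The median of the members was -0.015, where that of all genes was 0.003. Arrays did not overlap in 3 genes higher and 9 lower in si-BAP1, against 14.8% and 10.2% of all genes.

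WEE1 differed by 0.29 (SE 0.044, limma adjusted p = 0.000855), BIRC5 by -0.35 (SE 0.034, limma adjusted p = 2.46e-05) and HMMR by -0.25 (SE 0.039, limma adjusted p = 0.0013). Of the 4 tested probe sets of HMMR only the brightest was called between the knockdowns, and 3 were not. Their values ran from -0.247 to -0.106. CDK1 differed by -0.70 (SE 0.043, limma adjusted p = 8.94e-07), but its second probe set did not pass (-0.089, adjusted p = 0.53) and the call ended without _s_at and _x_at sets (adjusted p = 0.514). CDC20 differed by -0.15 (SE 0.036, limma adjusted p = 0.0187), a call that ended without any 1 of the si-BAP1 arrays or si-MBD5 replicate 3 (adjusted p from 0.0517 to 0.0603), from the mean of its probe sets (0.104) and without _s_at and _x_at sets (0.677). For the 10 genes higher in both knockdowns (CCNB1, CCNB2, CCNF, AURKB, TPX2, PRC1, ASPM, NCAPH, CDC25C and MYBL2), the difference between the knockdowns lay between -0.11 and 0.14 log2 and none passed, which does not show that they responded alike. In MYBL2, CDC25C and NCAPH the arrays of the knockdowns did not overlap.

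**Figure D4:**
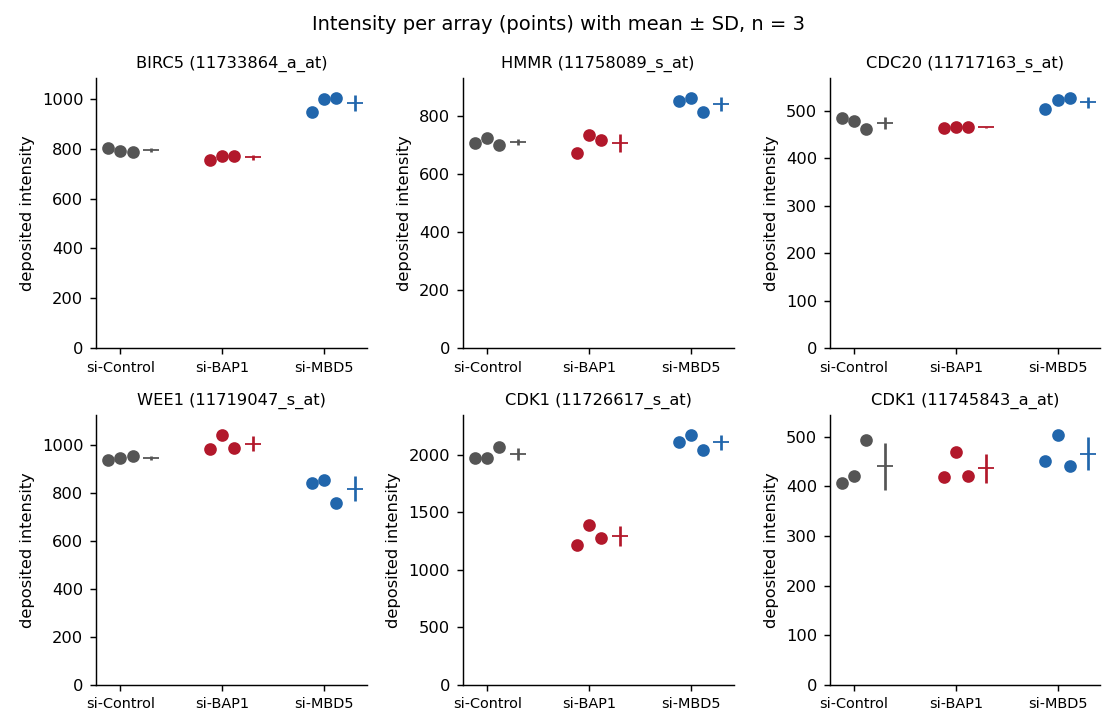
Deposited intensity (y axis, linear, from 0) in each array for 4 genes that differ between the knockdowns and for both tested probe sets of CDK1; points are arrays and crosses with bars the mean ± SD, n = 3. BIRC5, HMMR and CDC20 read highest in the 3 si-MBD5 arrays, WEE1 reads lowest there, and the fall of CDK1 in si-BAP1 from 2007 to 1292 appears in the bright probe set but not in the dim one.

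Each probe set was also read by itself. In si-BAP1 30 of the 115 tested probe sets were higher and 1 lower, against 11.6% and 8.88% of all probe sets, 20.5% in all. In si-MBD5 37 were higher and 1 lower, against 6.09% and 6.8%, 12.9% in all. Between the knockdowns 1 was higher and 10 lower in si-BAP1, against 4.66% and 3.16%, 7.81% in all, and 7 of those 10 were probe sets of BIRC5. Probe sets of 1 gene are not independent: 29 genes had several tested sets, and BIRC5 had 11.

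Among those 29 genes, all sets were called in 5, some in 8 and none in 16 in si-BAP1. The counts in si-MBD5 were 2, 13 and 14. The brightest set was not called while another was in 5 genes in si-BAP1 and 9 in si-MBD5, with MKI67, PLK1 and CCNA2 among them in both. With calls from any probe set, 20 of the 41 genes had at least 1 in si-BAP1 and 24 in si-MBD5. A gene with many probe sets has more occasions for a call under this rule. The shares of all genes under it, and under the splits above, were not computed, so these counts are no result about the members. Without si-Control replicate 2 the probe sets called higher in si-MBD5 fell from 37 to 21.

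**Figure D5:**
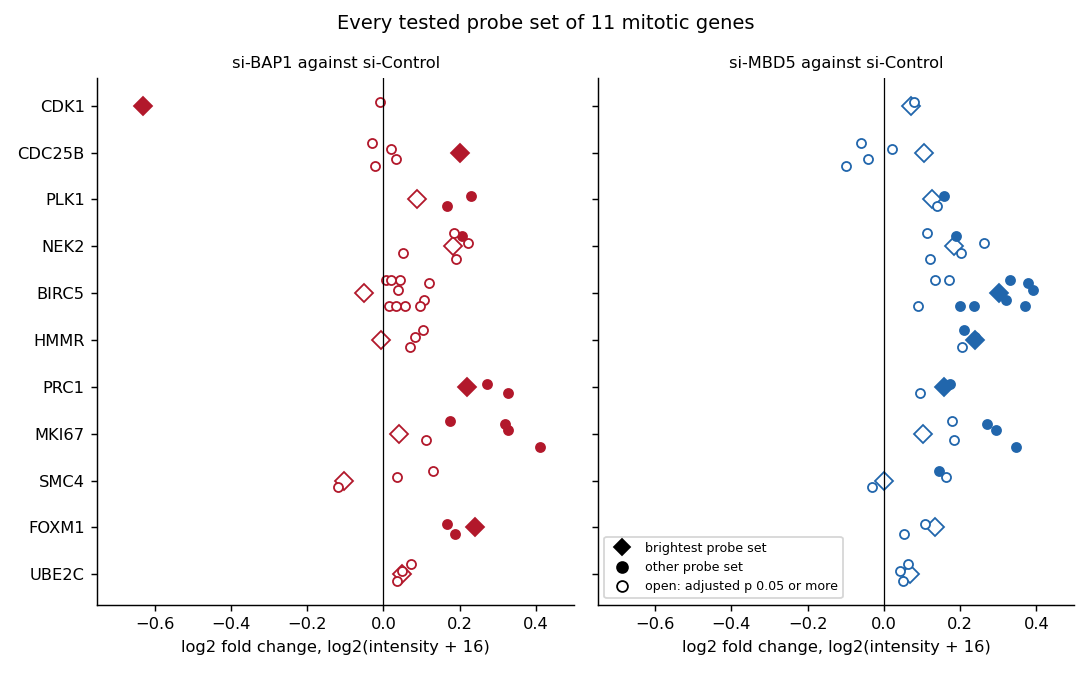
Log2 fold change against si-Control (x axis, log2(intensity + 16)) of every tested probe set of 11 mitotic genes, in si-BAP1 (left) and si-MBD5 (right); diamonds are the brightest set of each gene and filled symbols passed the threshold. The BIRC5 sets cluster near 0 in si-BAP1 and reach 0.39 in si-MBD5, while the brightest set of CDK1 stands apart from its other set in si-BAP1.

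Neighbouring parts of the mitotic machinery were read from lists of related genes. Of the 12 DREAM and MuvB subunits, 2 were higher and 2 lower in si-BAP1 and none higher and 2 lower in si-MBD5. These counts are near the shares of all genes in si-BAP1, 12.4% higher and 11.1% lower, and in si-MBD5 those shares were 7.29% and 8.99%. The list medians were 0.028 and -0.034 log2. TFDP1 (DP1) and RBBP4, a histone-binding subunit, were higher in si-BAP1 (0.34, adjusted p = 0.00252 and 0.24, adjusted p = 0.00782). E2F5, a repressor-type E2F, and LIN37, needed for DREAM repression, were lower in both (-0.29 and -0.15 in si-BAP1, -0.20 and -0.17 in si-MBD5). The call of LIN37 ended without either of 2 si-BAP1 arrays or 2 controls in si-BAP1 (adjusted p from 0.0509 to 0.117), and without si-Control replicate 1 or 2 or si-MBD5 replicate 1 in si-MBD5 (0.0821 to 0.0911). LIN9, LIN54 and E2F4 were not called in either (0.15, 0.05 and 0.027 in si-BAP1, -0.028, 0.14 and -0.087 in si-MBD5).

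The list on phosphatase control, with 13 of 14 genes tested, held 4 higher in si-BAP1 and 1 in si-MBD5, against 12.4% and 7.29% of all genes, with medians of 0.069 and 0.021 log2. PPP2R2B, a regulatory subunit of PP2A, rose most (1.24, adjusted p = 5.51e-07 and 0.70, adjusted p = 0.000154). CDC25A, the third CDC25 phosphatase, was higher in si-BAP1 (0.42, adjusted p = 5.02e-05) and had 0.021 (adjusted p = 0.836) in si-MBD5. ENSA, the PP2A inhibitor that the kinase Greatwall switches on, was higher in si-BAP1 (0.40, adjusted p = 0.00365), as was PPP2R1A, the PP2A scaffold (0.16, adjusted p = 0.0199), whose call ended without si-BAP1 replicate 1 or 3 or si-Control replicate 3 (adjusted p from 0.0579 to 0.0801).

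Of 14 other mitotic kinases tested, of 15 listed, 6 were higher in si-BAP1 and 5 in si-MBD5, against 12.4% and 7.29% of all genes, with none lower and medians of 0.12 and 0.11 log2. NEK6 and LATS2 had 0.38 and 0.31 in si-BAP1 and 0.19 and 0.29 in si-MBD5. PLK4, the kinase of centriole duplication, had 0.28 and 0.23, and BUB1, the checkpoint kinase, 0.19 and 0.24. BUB1 lost its call without any 1 of si-BAP1 replicates 2 and 3 or si-Control replicates 1 and 2 in si-BAP1 (adjusted p from 0.0692 to 0.14), and without si-Control replicate 1 or si-MBD5 replicate 2 in si-MBD5 (0.0704 and 0.0542).

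The CDK inhibitors and arrest genes went the other way: 4 of the 5 tested (7 were listed) were lower in si-BAP1 and 3 in si-MBD5, against 11.1% and 8.99% of all genes, with none higher and medians of -0.23 and -0.36 log2. CDKN1A (p21), the inhibitor that p53 induces, read 1655, 1713 and 1583 in the si-Control arrays, 807, 787 and 806 in the si-BAP1 arrays and 789, 782 and 853 in the si-MBD5 arrays. Its log2 fold change was -1.03 (SE 0.04, limma adjusted p = 6.17e-09) in si-BAP1 and -1.02 (SE 0.04, limma adjusted p = 2.18e-08) in si-MBD5, and no array of either knockdown reached the controls. GADD45A, a p53-induced arrest gene, fell by 0.47 and 0.68 log2, and CDKN1C (p57) by 0.23 and 0.36. SFN (14-3-3 sigma) was called in si-BAP1 (-0.14, adjusted p = 0.0338) and not in si-MBD5 (-0.13, adjusted p = 0.0675), and its call ended without any 1 si-BAP1 array or without si-Control replicate 1 or 2 (adjusted p from 0.079 to 0.147). Their relation to the members was not tested.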

How the data were processed

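RNA of 9 HCCC-9810 samples (6 ug total RNA each, per the labels) was measured on Affymetrix arrays. Each deposited value is the linear intensity of 1 probe set on 1 array, made with MAS5 per the submitters' processing notes; its version and the scaling between arrays are not given in the sources used here. Array medians ran from 36.9 to 38.2 and no further scaling was applied in the main fit. Of 49395 probe sets, 44988 had 1 symbol; symbols were updated through gene identifiers (44961 matched). Here log2(intensity + 16) was computed, probe sets with a mean above the 40th percentile (25.5) were kept, and genes were read from their brightest probe set. A model with 3 group means over 9 arrays (6 residual degrees of freedom) was fitted in limma 3.58.1 under R 4.3.3 with an intensity trend, over all genes, and again over all probe sets with 1 symbol. All adjusted p-values are Benjamini-Hochberg over all rows of a fit, with a threshold of 0.05. Labels call samples biological replicates without naming cultures, and the p-values reflect the spread among these samples, which may be technical. The median SD within groups was 0.061 log2, and the number of arrays limits precision. The procedure was tested on simulated data for si-BAP1 against si-Control. It found 2 of 50 genes changed by 0.1 log2, 32 of 50 changed by 0.25 and 47 of 50 changed by 0.5. A member that was not called may therefore still have changed by a small amount.

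The members and lists were chosen with earlier results of these data known. Named genes were the 8 members with the largest called change in each knockdown, 4 between them, the APC/C members, those whose probe sets opposed a call in sign, and up to 4 called genes of each other list with 5 fixed ones. Alternatives were constants, filters, scalings, probe set choices, a replicate block, variance models, array weights and leaving out each array. Figures used matplotlib 3.10.9 in Python 3.11.15.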

Additional observations from a re-analysis of the deposited data

How the results depend on the processing

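No called fold change of a member turned direction under the alternatives run. The split of all genes did turn: under quantile normalization from 1536 higher and 1382 lower to 1516 and 1567 in si-BAP1, from 907 and 1118 to 1109 and 1056 in si-MBD5, and from 716 and 524 to 603 and 711 between the knockdowns. It also turned without si-BAP1 replicate 2, in si-BAP1 (1170 and 1318) and between the knockdowns (371 and 474), and without si-MBD5 replicate 1, in si-MBD5 (736 and 718) and between the knockdowns (346 and 375). Calls kept under every alternative that gave the gene a value were 11 of 14 higher and 0 of 1 lower genes in si-BAP1, 8 of 16 higher and 1 of 1 lower in si-MBD5, and 1 of 1 higher and 2 of 4 lower between the knockdowns. Over the single genes, 2335 values stayed on their side of the threshold, 61 lost a call and 49 gained one. Without _x_at and _s_at probe sets, genes lower fell to 0 in both knockdowns, and between them to 0 higher and 2 lower; probe sets lower fell to 0 in both knockdowns, and between them to 0 higher and 4 lower. This alternative removes the probe set that carries the CDK1 call and the only probe set of WEE1. Array weights gave 23 genes higher and 2 lower and 52 probe sets higher and 3 lower in si-BAP1, and 2 genes and 2 probe sets higher between the knockdowns; the cause was not tested. Leaving out 1 array gave 13 to 14 genes and 22 to 29 probe sets higher in si-BAP1, with 1 to 2 probe sets lower. It gave 8 to 15 genes and 21 to 35 probe sets higher in si-MBD5, with 1 to 2 probe sets lower. Between the knockdowns it gave 3 to 5 genes and 8 to 10 probe sets lower, and 1 to 2 probe sets higher. Deviations from the group means correlated from -0.433 to 0.48 between samples with the same replicate number. Between samples with different numbers they ran from -0.556 to 0.47, so the numbers show no clear pairing. Some samples of different groups and numbers did deviate together. These include si-MBD5 replicate 3 with si-BAP1 replicate 1 (0.47) and with si-Control replicate 1 (0.404), and si-BAP1 replicate 2 with si-Control replicate 3 (0.382). The source of such shared deviations was not tested. With the replicate number as a block, 15 genes were higher in si-BAP1 and 15 in si-MBD5, 32 probe sets in each, and 2 probe sets were higher between the knockdowns. The mean over probe sets was run for genes alone. Among the members it added calls of MKI67, PLK1, CCNA2 and NEK2 as higher in both knockdowns. It also added TOP2A and NUSAP1 in si-BAP1, and NCAPG and CDCA8 in si-MBD5. The calls it ended were those of CDC25B in si-BAP1, DLGAP5 in si-MBD5 and CDC20 between the knockdowns. The number of arrays limits what small changes can show.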
